A study of Homo sapiens with 8 samples.

Results

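Crizotinib-resistant H3122 cells, erCriz0, were compared with lines that had evolved resistance to later-generation ALK inhibitors, erAlec0 under alectinib and erLor0 under lorlatinib. RNA values and H3K27ac values of the 3 resistant lines were used, with 1 library of each kind per line. For each gene and each peak the difference was taken as the rlog value in erCriz0 minus the mean of the values in erAlec0 and erLor0. The rlog value is a log2 level that the authors computed over 4 libraries, and it pulls differences of features with few reads toward 0. A gene was kept where its level reached 4.64 (log2 of 25 reads) in at least 1 of the 4 libraries, and a peak where it reached 3.91 (log2 of 15 reads). The fourth library, from treatment-naive cells, entered only this minimum. It kept 12701 of 43869 genes and 86432 of 126470 peaks. The gene closest to the limit on the inside had a maximum level of 4.644, and the closest on the outside had 4.643.

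H3122 is a lung adenocarcinoma cell line that carries the EML4-ALK fusion, and all 3 resistant lines descend from it. They had been obtained by raising the inhibitor step by step and were maintained in 0.5 µM crizotinib, 2 µM alectinib or 2 µM lorlatinib, in RPMI with serum. RNA was isolated after a period without inhibitor, and the ChIP-seq samples are labelled with DMSO. Further crizotinib- and lorlatinib-resistant lines of the series, a sample treated with lorlatinib and the pooled input were not analysed here. Each line is a single derived population, and the 2 later lines stand for different drugs, so they are not replicates of a group. No line had a replicate library, so no test was run, no p-value is given, and a difference between lines cannot be told apart from a difference between libraries.

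ALK is a receptor tyrosine kinase that normal adult lung hardly expresses. Fusion to EML4 makes its kinase domain active without a ligand, and the fusion signals through the RAS-ERK, PI3K-AKT and JAK-STAT3 pathways. Crizotinib, the earliest of these inhibitors in clinical use, also blocks MET and ROS1. Alectinib and lorlatinib were designed for higher potency on ALK, and lorlatinib for activity on many ALK mutants. H3K27ac is an acetylated form of histone H3 found at active promoters and enhancers. Interferon-stimulated genes, which recur below, are switched on by STAT and IRF factors and include antiviral effectors and the machinery that loads peptides onto HLA class I.

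The lines expressed the markers of their origin. Of 8 markers of a lung adenocarcinoma line 6 were kept, with levels of EPCAM at 12.64 in erCriz0 against 12.54 in erAlec0 and 12.51 in erLor0. NKX2-1, the lung lineage factor, stood at 8.67 in erCriz0 against 9.13 in erAlec0 and 9.18 in erLor0. NAPSA and SFTPB, markers of differentiated alveolar cells, stayed under the minimum. None of 6 leukocyte markers was kept, and of the fibroblast markers only COL1A1 was. The median level of kept genes was 8.09 in erCriz0 against 8.11 in erAlec0 and 8.12 in erLor0, and that of kept peaks was 4.97, 5.07 and 4.94 in the same order.

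erCriz0 lay apart from both later lines, which were closer to each other. Between erCriz0 and erAlec0, 749 genes differed by at least 1 (5.9% of kept genes), and between erCriz0 and erLor0 682 genes did (5.37%). Between erAlec0 and erLor0 the count was 156 genes (1.23%). The median absolute RNA difference was 0.30, 0.27 and 0.18 for these pairs. The peaks had the same order, with 26475 peaks (30.6%) between erCriz0 and erAlec0, 19435 (22.5%) between erCriz0 and erLor0, and 7192 (8.32%) between erAlec0 and erLor0. These pairs share libraries, so the counts are not independent of each other.

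RNA was higher in erCriz0 by at least 1 at 312 genes (2.46%) and lower at 301 genes (2.37%). These shares are the background for the counts of list members below. Of the kept genes 115 were kept only through erCriz0. Among the 11985 genes at the minimum level in each resistant line 245 were higher and 271 lower. A stricter rule asked that erCriz0 lie at least 1 beyond the nearer of the later lines. By this rule 225 genes (1.77%) were above both lines and 166 (1.31%) were below both. The largest differences were among the higher genes, of which 42 passed a difference of 2, against 9 of the lower genes. H3K27ac was higher at 10975 peaks (12.7%) and lower at 11299 (13.1%), with 8538 peaks (9.88%) above both later lines and 6047 (7%) below both. Over the 93580 pairs of a kept peak and a kept gene, 8.36% were at least 1 higher and 9.47% at least 1 lower. These 2 shares are the background for the peak counts at named genes below.

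**Figure D1:**
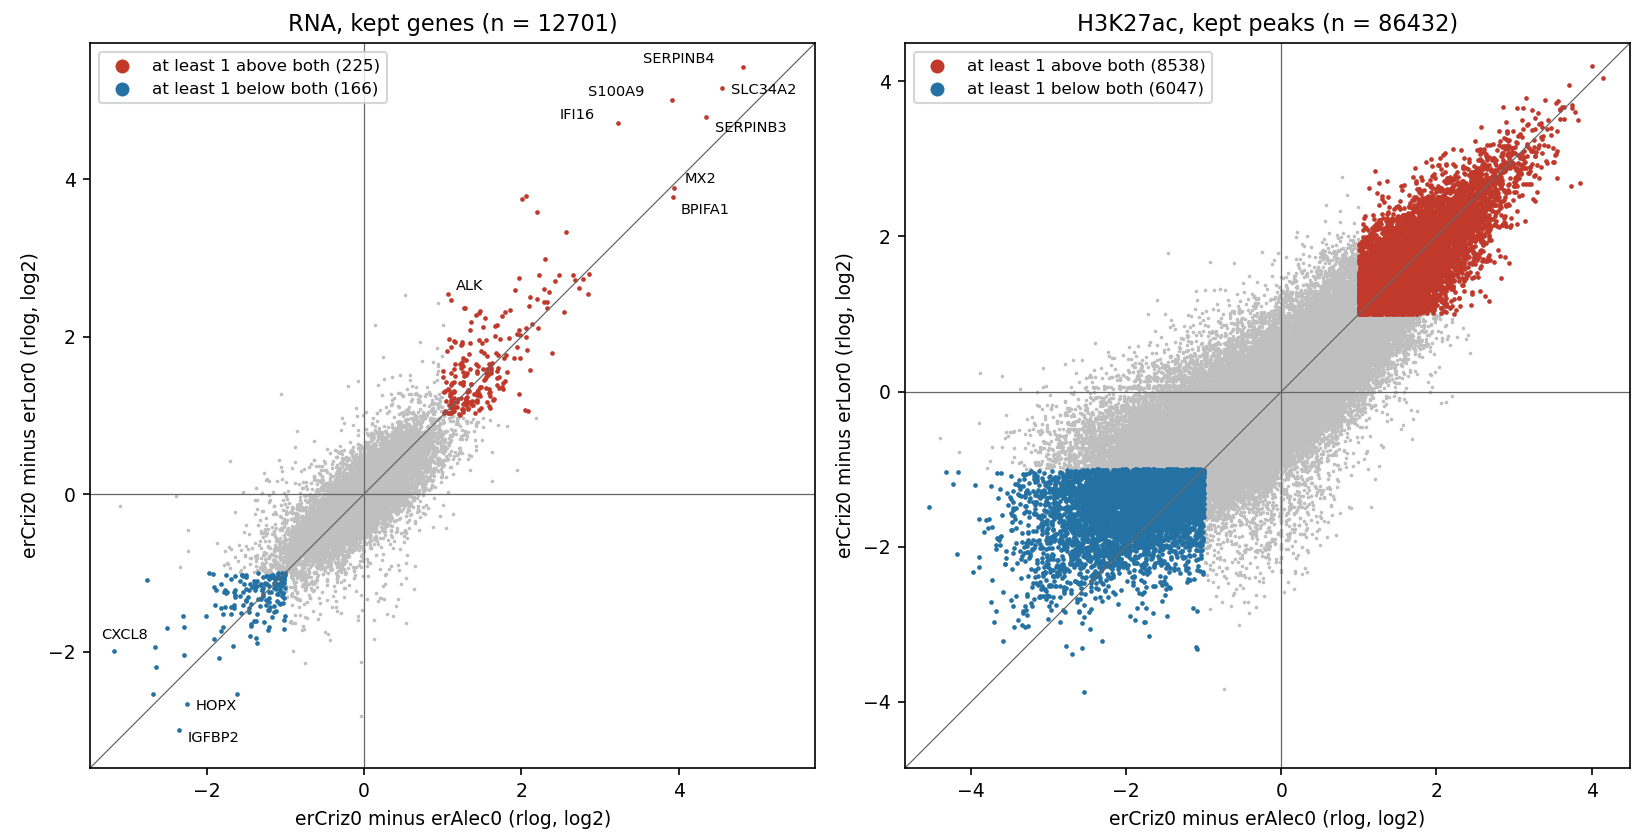
Each point is a kept gene (left, RNA) or a kept H3K27ac peak (right). The horizontal axis is the rlog level in erCriz0 minus that in erAlec0 and the vertical axis is the level in erCriz0 minus that in erLor0, both in log2 units, and the diagonal line marks equal differences. Red marks features at least 1 above both later lines and blue those at least 1 below both. The genes farthest out are on the higher side, led by SERPINB4 at 4.81 above erAlec0, and CXCL8, HOPX and IGFBP2 lie at the lower end.

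The RNA differences ran with base composition. Over 12684 genes with a reference transcript, Spearman's rho between the difference and the GC content of the longest transcript was -0.55, while for erAlec0 minus erLor0 it was 0.02. Genes are not independent of each other, and this is a description of these libraries. The median GC content was 47.6% over kept genes, 43.4% over genes higher in erCriz0 and 59.5% over genes lower in it. In the tenth of genes with the lowest GC content 50 were higher and 6 were lower, and in the tenth with the highest 2 were higher and 118 were lower. When the median difference within 50 bins of GC content was taken off, 286 genes were higher and 138 lower, 245 and 117 of which were among the original calls. Genes above both lines then numbered 210 and those below both 72, of which 54 were among the 166. Whether this trend belongs to the library or to the cells was not tested. Peaks showed almost none of this trend, with a rho of 0.04 over 86432 peaks between the difference and the GC content of the peak. For erAlec0 minus erLor0 the rho over peaks was -0.27. Peaks past 1 in either direction were still more frequent at low GC content. In the tenth of peaks with the lowest GC content 18.3% were higher and 19.9% lower, against 5.31% and 4.11% in the highest. Below, a gene whose difference drops under 1 without the trend is given with its value without it.

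**Figure D2:**
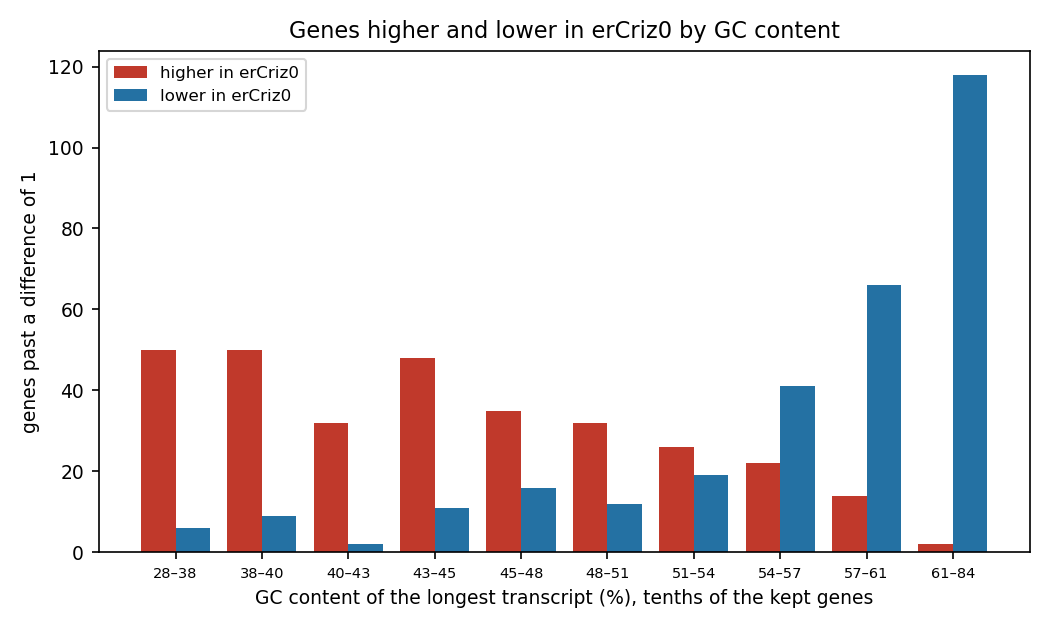
Bars give the number of genes at least 1 higher (red) or at least 1 lower (blue) in erCriz0 than the mean of the later lines, for 10 equal groups of kept genes ordered by the GC content of their longest transcript in percent. The lower genes gather in the groups of highest GC content, with 118 in the last group against 6 in the first.

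Interferon-stimulated genes were higher in erCriz0 as a group. Of 42 genes of the list in the table, 34 passed the minimum, and 20 of them were higher and 0 lower, against 2.46% higher and 2.37% lower over all kept genes. The median difference of the kept members was 1.16, against 0.00 over all kept genes, and 31 of 34 were above 0. The minimum level matters here, since 7 members were kept only through erCriz0. Among the 24 members at the minimum level in each resistant line 11 were higher, with a median of 0.85. Over all 42 members, with no minimum, 39 had a difference above 0. Without the GC trend 20 members were higher and the median was 1.07. In bulk RNA, more cells with these genes on and more RNA per cell cannot be told apart.

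The members farthest out were an antiviral GTPase and a DNA sensor. MX2, the GTPase (ENSG00000183486.13, chr21:41361999-41409393, hg38), had a level of 7.59 in erCriz0 against 3.65 in erAlec0 and 3.69 in erLor0. IFI16, the nuclear DNA sensor (ENSG00000163565.18, chr1:158999968-159055155), had 9.46 in erCriz0 against 6.23 in erAlec0 and 4.75 in erLor0. Both were far above the later lines, and IFI16 also separated erAlec0 from erLor0. MX1, the better known relative of MX2, differed less, with 5.88, 4.59 and 4.67 in the order erCriz0, erAlec0 and erLor0. The guanylate-binding protein GBP2 had 7.54 in erCriz0 against 5.34 in erAlec0 and 5.06 in erLor0, and its neighbour GBP1 had 5.12, 3.79 and 3.34 in that order, while GBP3 of the same cluster differed by 1.18 (0.98 without the GC trend). The restriction factor SAMD9 had 8.21, 6.24 and 5.46, and its paralogue SAMD9L had 7.81, 6.19 and 6.21. IFIT3, an RNA-binding effector, had 5.48, 3.68 and 3.71. In all of these erCriz0 was highest, and for MX2, IFIT3 and GBP1 the later lines were under the minimum level.

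Sensors and regulators followed at smaller differences. IFIH1, the sensor of double-stranded RNA also called MDA5, differed by 1.14, and PARP9 by 1.28. The membrane proteins IFITM1 and IFITM3, close copies of each other between which reads may be split, differed by 1.63 and 1.54. The transcription factors were less affected. IRF1 differed by 1.11, STAT2 by 0.13 and IRF9 by 0.12, and IRF7 had -0.17. USP18, which damps interferon signalling, and ISG20 went the other way at -0.61 and -0.49, and ISG15 differed by 0.59.

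H3K27ac at the starts of these genes was mostly higher as well. A peak within 1 kb of the gene start was present for 30 kept members, with a difference above 0 at 24 of them and of at least 1 at 7, against 51.3% and 2.64% over the 11253 kept genes with such a peak. Neighbouring genes share some of these peaks, among them PSMB8 with PSMB9 and IFITM1 with IFITM2. The peak at the start of IFI16, chr1:158998994-159001291, had 7.45 in erCriz0 against 4.88 in erAlec0 and 4.67 in erLor0, and the other 2 peaks of the gene were above both lines too. The peak at the start of MX2 had 7.84, 5.53 and 5.52, while a peak inside the gene 34353 bases downstream went the other way, with a difference of -0.77. IFIT2 had the 1 start peak of the list that was at least 1 lower. Its RNA was higher by 1.36 while that peak was lower by 1.21 on the log2 scale. The start peak of SAMD9 hardly differed, at 0.02.

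The promoters of interferon-stimulated genes carry the short GAAA repeats that IRF and ISGF3 factors read. The motif GAAANNGAA, searched on both strands in the 300 bases around the gene start (RefSeq, GRCh38.p14), was found in 15 of the 27 kept list members with a promoter in the table (55.6%). It was in 9 of the 14 that were above both lines (64.3%), in 6.16% of the promoters of 9857 kept genes and in 8.11% of all 35116 promoters. Since the motif belongs to the class, the list shares it whatever the difference. Of 172 promoters of genes above both lines 20 held it (11.6%), and of 113 of genes below both 4 did (3.54%). Leaving out the interferon list, 11 of 158 promoters of genes above both lines held it (6.96%). The 250 bases before the start are shown for 4 members above both lines to show where the motif stands, 5′ to 3′ on the gene's strand, with the matches in capitals.
IFIT3: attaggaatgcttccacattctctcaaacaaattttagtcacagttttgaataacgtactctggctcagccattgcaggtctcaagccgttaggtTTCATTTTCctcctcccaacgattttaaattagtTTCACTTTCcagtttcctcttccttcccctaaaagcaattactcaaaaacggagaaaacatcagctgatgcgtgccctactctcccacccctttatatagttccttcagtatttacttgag
GBP1: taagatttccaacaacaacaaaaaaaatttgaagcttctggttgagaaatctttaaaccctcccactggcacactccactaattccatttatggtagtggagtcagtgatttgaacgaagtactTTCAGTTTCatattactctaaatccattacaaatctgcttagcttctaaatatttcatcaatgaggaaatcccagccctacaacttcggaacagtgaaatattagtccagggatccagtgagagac
SAMD9: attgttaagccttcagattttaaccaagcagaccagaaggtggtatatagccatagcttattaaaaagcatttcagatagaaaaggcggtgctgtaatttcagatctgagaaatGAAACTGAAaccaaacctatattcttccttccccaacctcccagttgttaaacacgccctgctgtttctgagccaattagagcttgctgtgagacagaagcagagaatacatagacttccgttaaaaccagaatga
IFI44: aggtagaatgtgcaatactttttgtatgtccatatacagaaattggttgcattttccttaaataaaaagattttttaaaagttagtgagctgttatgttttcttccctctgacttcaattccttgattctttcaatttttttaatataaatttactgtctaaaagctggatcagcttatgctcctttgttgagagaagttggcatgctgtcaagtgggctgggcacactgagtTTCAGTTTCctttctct
These are chr10:89327747-89327996 (IFIT3, plus strand), chr1:89065209-89065458 (GBP1, minus strand), chr7:93117980-93118229 (SAMD9, minus strand) and chr1:78649539-78649788 (IFI44, plus strand). IFIT3 holds 2 matches and the others hold 1 each. The match begins 17 bases before the RefSeq start in IFI44, and in the other 3 the nearest match begins between 121 and 136 bases before it. A match in letters shows no binding of a factor.

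Antigen presentation by HLA class I ran in the same direction. Of 13 kept members 4 were higher and 0 lower, with a median difference of 0.72, and 11 were above 0. Over all 12701 kept genes 2.46% were higher, 2.37% were lower and 6357 were above 0. The peptide transporter TAP1 had 7.19 in erCriz0 against 6.18 in erAlec0 and 5.71 in erLor0. The immunoproteasome subunits PSMB8 and PSMB9, counted with the interferon list, had differences of 1.49 and 1.71. For PSMB9 both later lines were under the minimum level. HLA-B had 8.51, 7.92 and 7.07 in the same order, and HLA-C differed by 0.74. HLA genes share long stretches of sequence, so their reads may be misassigned. The peptide-trimming aminopeptidases ERAP1 and ERAP2 differed by 1.32 and 1.77. They lie side by side on chromosome 5 in a region where peaks and RNA were raised together, which is described below.

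**Figure D3:**
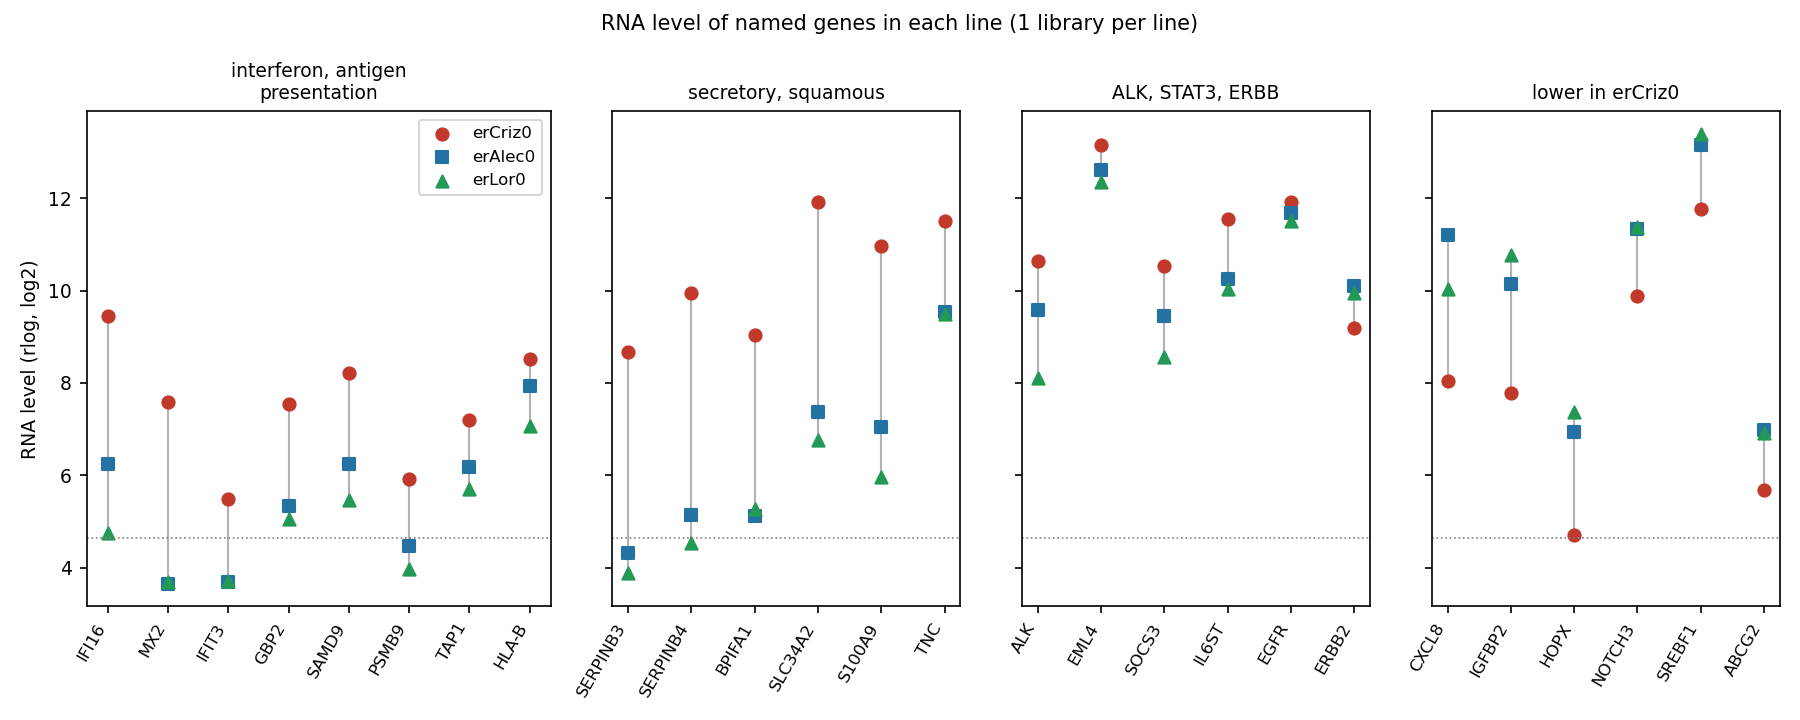
RNA level (rlog, log2) of named genes in erCriz0 (red circles), erAlec0 (blue squares) and erLor0 (green triangles), with 1 library per line and no error bar. The dotted line is the minimum level of 4.64. The red circle is on top in every gene of the first 2 panels and at the bottom in every gene of the last panel, and in the ALK, STAT3 and ERBB panel it is on top in all but ERBB2.

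The largest difference of all was in a clade B serpin. SERPINB3 and SERPINB4, the squamous cell carcinoma antigens, are inhibitors of cysteine and serine proteases and are near-identical copies side by side on chromosome 18. SERPINB4 (ENSG00000206073.11, chr18:63637259-63644256) had 9.95 in erCriz0 against 5.14 in erAlec0 and 4.53 in erLor0, and SERPINB3 had 8.67, 4.32 and 3.88. Reads may be split between them, so the values describe the pair. For SERPINB3 both later lines were under the minimum level, and for SERPINB4 erLor0 was. The locus also held the peak farthest above both later lines, chr18:63654732-63662771 over SERPINB3, with 9.21 in erCriz0 against 5.06 in erAlec0 and 5.17 in erLor0. A second peak over SERPINB4, chr18:63637604-63649448, had 9.69, 5.98 and 5.74. SERPINB9, the granzyme B inhibitor on chromosome 6, was 9.05 in erCriz0 against 7.11 and 7.02, and SERPINB1, an inhibitor of neutrophil proteases, differed by 1.27.

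The squamous list includes the serpins and was mixed outside them. The counts and medians here are for the whole list with the serpins, in which near-identical copies count separately. Of 14 kept members 7 were higher and 2 lower, against 2.46% and 2.37% over all kept genes. The median was 0.80, or 1.22 against erLor0 alone, and 1 member was kept only through erCriz0. Among the 10 members at the minimum level in each line 4 were higher and 2 lower, with a median of 0.50. KRT6A, a keratin of stressed and squamous epithelium, had 7.82 in erCriz0 against 5.75 in erAlec0 and 5.71 in erLor0. SPRR1B, a cornified envelope protein, differed by 1.79. In the other direction KRT17, a keratin that often accompanies KRT6A, had 7.98, 10.48 and 9.68, and KRT16 differed by -1.09 (-0.71 without the GC trend). TP63, the squamous master regulator, was near the minimum in each line and differed by -0.32, and KRT5, the basal keratin, was under the minimum.

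Airway secretory genes were higher in 7 of 24 kept members and lower in 2, against 2.46% and 2.37% over all kept genes. The median was 0.54, or 0.26 against erAlec0 alone and 0.65 against erLor0 alone. BPIFA1, a secreted defence protein of the upper airway, had 9.03 in erCriz0 against 5.11 in erAlec0 and 5.26 in erLor0. Its neighbour on chromosome 20, BPIFB1, had 9.38, 7.63 and 7.12, and BPIFA2 and BPIFB2 of the same cluster differed by 1.02 and 0.91. The peak at the start of BPIFA1 had 10.67 in erCriz0 against 8.07 in erAlec0 and 8.55 in erLor0. The trypsinogens PRSS1 and PRSS2, which are near-identical copies, differed by 1.91 and 1.42, and all 9 peaks of PRSS2 were higher by at least 1. LCN2, an iron-sequestering protein, differed by 1.57 and the mucin MUC13 by 1.81. The gel-forming mucins did not follow, since MUC5AC differed by -0.61 and MUC5B by -0.37, although the start peak of MUC5AC was higher by 1.53. The trefoil factor TFF1 was lower, with 8.87, 10.56 and 10.30. At gene starts 18 of 21 peaks of the list had a difference above 0 and 8 were at least 1 higher, against 2.64% over all such genes.

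Other genes high in erCriz0 came from several families. SLC34A2, the sodium-phosphate transporter of alveolar type II cells, had 11.92 in erCriz0 against 7.37 in erAlec0 and 6.76 in erLor0. It was alone in its list: of 14 kept alveolar lineage genes it was the 1 higher, while 3 were lower and the median was -0.24. Over all kept genes 2.46% were higher and 2.37% lower. HOPX, a cofactor of alveolar type I cells, had 4.70, 6.95 and 7.37, and 11 of its 16 peaks were at least 1 lower. LAMP3 and CTSH, of lamellar bodies and lysosomes, differed by -1.63 and -1.15, the latter -0.97 without the GC trend. S100A9, a calcium-binding protein best known from myeloid cells, had 10.97, 7.06 and 5.96 although no leukocyte marker was kept. The rest of the S100 list leaned the other way, with 3 of 13 kept members lower, namely S100A2 at -1.54, S100A4 at -1.79 and S100A14 at -1.08 (-0.97 without the GC trend). The lysosomal protease CTSL had 11.23 in erCriz0 against 8.66 in erAlec0 and 7.90 in erLor0. H3K27ac differed little at S100A9 and CTSL. The 2 peaks of S100A9 differed by 0.21 and 0.14, and the 1 peak of CTSL by 0.41. The axon guidance and adhesion genes NTNG1 and NCAM2 differed by 2.82 and 2.76, and all 4 and all 5 of their peaks were at least 1 higher. PDZK1IP1, a membrane cargo protein of epithelia, differed by 2.70, with 5.80, 3.12 and 3.08. The carboxypeptidase CPB1 differed by 2.72, with 5.73, 3.07 and 2.95. For NCAM2, PDZK1IP1 and CPB1 both later lines were under the minimum level.

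**Figure D4:**
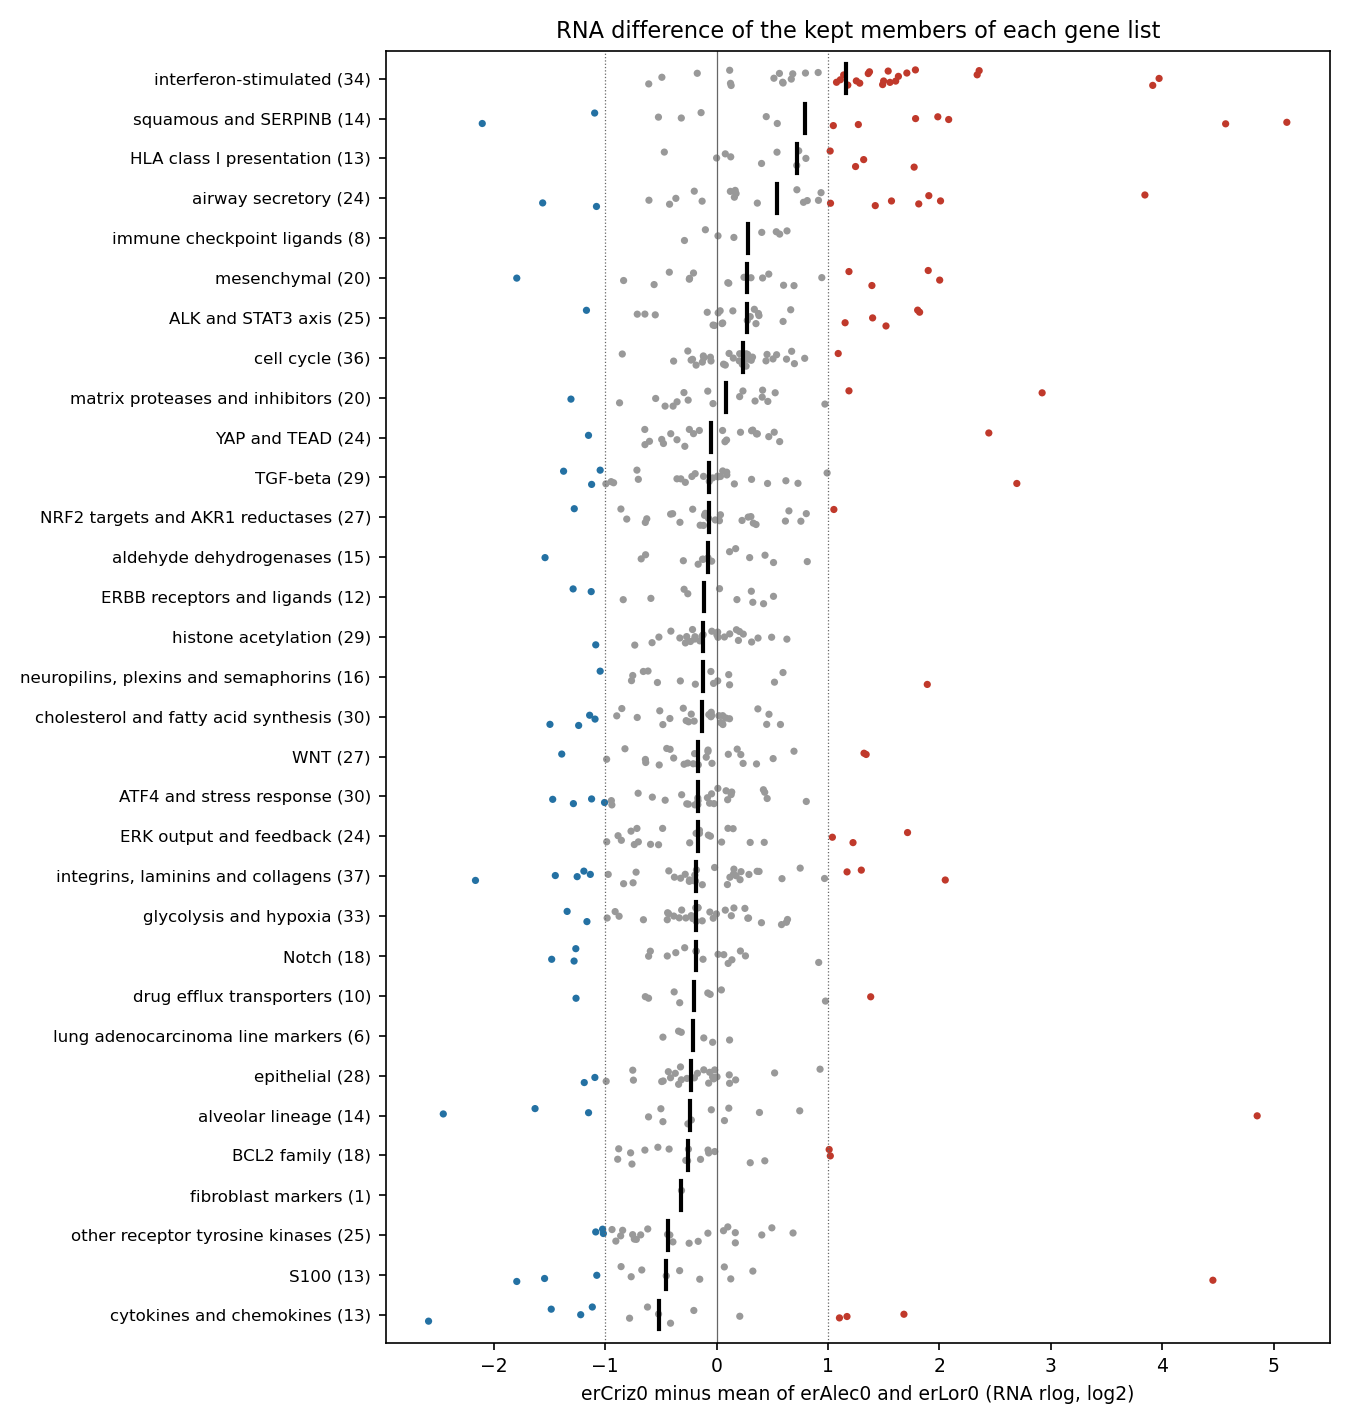
Each point is a kept member of a gene list, placed by its RNA difference in log2 units (erCriz0 minus the mean of erAlec0 and erLor0), with the number of kept members in brackets and lists in order of their median (black bar). Red points are at least 1 higher and blue points at least 1 lower. The interferon-stimulated list is on top with a median of 1.16 and the cytokine list at the bottom with -0.52, and most lists are within 0.30 of 0.

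ALK itself was highest in erCriz0. Its RNA had 10.65 in erCriz0 against 9.58 in erAlec0 and 8.10 in erLor0, a difference of 1.80 in which erAlec0 and erLor0 also stood apart by more than 1. The counts do not separate the fusion from the intact gene. EML4, whose promoter drives the fusion, had 13.15, 12.62 and 12.36. The 40 peaks of EML4 had a median difference of 0.74, with 11 at least 1 higher and 0 lower. Of 35 peaks at ALK 5 were at least 1 higher and 2 lower, against 8.36% and 9.47% of all pairs of a kept peak and gene. The peak with the largest difference was lower: chr2:29231949-29235783, inside the gene, had 6.39 in erCriz0 against 8.74 in erAlec0 and 8.65 in erLor0. The ALK locus lies in a 2 Mb bin, chromosome 2 from 28 to 30 Mb, whose genes and peaks were raised together, as described below.

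Of the 25 kept genes of the ALK and STAT3 list, 5 were higher and 1 was lower, against 2.46% and 2.37% over all kept genes. The median was 0.28. Against erAlec0 alone the median was 0.07, and against erLor0 alone it was 0.29. SOCS3 and SOCS2, feedback inhibitors induced by STAT factors, had differences of 1.52 and 1.82. SOCS3 had 10.53 in erCriz0 against 9.45 in erAlec0 and 8.56 in erLor0. The shared receptor chain of the interleukin-6 family, IL6ST, had 11.55, 10.26 and 10.04, and the oncostatin M receptor OSMR differed by 1.15. CISH, the relative of the SOCS genes that follows STAT5, was lower at -1.17 (-0.94 without the GC trend). Start peaks of the list were near the average, since 13 of 21 were above 0 and 0 were at least 1 higher.

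ERBB receptors and ligands held 0 higher and 2 lower genes among 12 kept, against 2.46% and 2.37% over all kept genes. ERBB2 had 9.18 in erCriz0 against 10.09 in erAlec0 and 9.95 in erLor0, a difference of -0.84. EGFR had 11.93, 11.69 and 11.51, and its peaks moved more than its RNA, with a median of 0.94 and 9 of 19 at least 1 higher. The intronic peak chr7:55084995-55089263 had 8.58 in erCriz0 against 5.74 in erAlec0 and 5.89 in erLor0. HBEGF, a ligand of EGFR, was lower with 7.71, 9.24 and 8.75, and ERRFI1, an EGFR feedback inhibitor, was at -1.13. Of 25 kept other receptor tyrosine kinases 0 were higher and 3 lower, with a median of -0.44. EPHB4 and DDR1, at -1.02 each, dropped to -0.63 and -0.61 without the GC trend. The ERK output list of 24 kept genes had 3 higher and 0 lower, with a median of -0.17 that was -0.34 against erAlec0 alone. ETV1, an ETS factor under ERK control, had 10.64, 9.30 and 8.56, and 6 of its 7 peaks were at least 1 higher.

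Cell shape and adhesion genes were split. Of 20 kept mesenchymal genes 4 were higher and 1 was lower, against 2.46% and 2.37% over all kept genes. The median was 0.28, which was 0.39 against erAlec0 alone and 0.07 against erLor0 alone. Of these members 2 were kept only through erCriz0. Among the 16 at the minimum level in each resistant line 3 were higher and 1 was lower. The matrix protein TNC had 11.51 in erCriz0 against 9.53 in erAlec0 and 9.49 in erLor0, and the collagen cross-linking enzyme LOX stood 1.90 above the mean of the later lines. VIM, the mesenchymal filament protein, differed by 1.39, with 8.13, 7.20 and 6.27. Both of its peaks were at least 1 lower, and the peak 1040 bases from the start, chr10:17229281-17230865, had 5.21, 7.70 and 6.55. Of 28 kept epithelial genes 0 were higher and 2 lower, CLDN3 at -1.19 (-0.62 without the GC trend) and KRT7 at -1.09 (-0.68 likewise), and the median was -0.23. CDH1, the epithelial cadherin, stood at 11.39, 11.62 and 11.38.

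Integrins, laminins and collagens had 3 higher and 5 lower genes of 37 kept, against 2.46% and 2.37% over all kept genes. The collagen-binding integrin chains ITGA1 and ITGA2, neighbours on chromosome 5, had differences of 2.05 and 1.17, the latter 0.97 without the GC trend, and 13 of the 14 peaks of ITGA2 were at least 1 higher. ITGB2, the beta chain of leukocyte integrins, was lower with 4.73 in erCriz0 against 7.02 in erAlec0 and 6.77 in erLor0, while its 11 peaks held 0 past 1 in either direction. The laminin chain LAMB2 differed by -1.25 (-0.91 without the GC trend). Among matrix proteases 2 of 20 kept genes were higher and 1 was lower, while of the 18 at the minimum level in each resistant line 1 was higher and 0 lower. PLAT, the tissue plasminogen activator, had 11.23, 9.18 and 7.45. NRP2, a semaphorin and VEGF coreceptor, was the 1 higher gene of 16 kept neuropilins, plexins and semaphorins, with 8.77, 7.23 and 6.53, and 7 of its 14 peaks were at least 1 higher.

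Cytokines and chemokines held the lowest median, -0.52, with 3 of 13 kept genes higher and 4 lower, against 2.46% and 2.37% over all kept genes. Among the 10 members at the minimum level in each resistant line 2 were higher and 3 lower. CXCL8, the neutrophil chemoattractant (ENSG00000169429.11, chr4:73740541-73743716), had 8.04 in erCriz0 against 11.21 in erAlec0 and 10.03 in erLor0. CXCL1 and CXCL2 of the same cluster differed by -1.22 and -1.12, and IL11 by -1.48. Of the lower members CXCL8 alone was at least 1 below both later lines. None of the 6 peaks of CXCL8 was lower by 1, and its start peak differed by 0.49. The higher members were a cytokine of natural killer cells, IL15, at 1.17 and the receptor chains IL1R1 and IL18R1 at 1.68 and 1.10. Without the GC trend IL15 stood at 0.95 and IL18R1 at 0.97, and IL15 was under the minimum level in both later lines.

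Other genes lay below both later lines. IGFBP2, an insulin-like growth factor binding protein, had 7.79, 10.14 and 10.78. NEDD9, a scaffold of focal adhesions, had 7.27, 9.91 and 9.21. Of its 45 peaks 37 were at least 1 lower, against 9.47% of all pairs of a kept peak and gene. NXN, a redox protein that binds Dishevelled, had 5.50, 7.78 and 7.19, with 23 of 30 peaks at least 1 lower. CECR2, a bromodomain protein, had 12 of 14 peaks lower. For these 3 genes RNA and H3K27ac differed in the same direction. The exocytosis factor UNC13D differed by -2.42 without a peak past 1 on the lower side, and RHOBTB2 and KRT81 by -1.87 and -1.96.

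Metabolic and stress lists held between 0 and 4 genes past 1 in each direction, against 2.46% higher and 2.37% lower over all kept genes. Of 30 kept genes of cholesterol and fatty acid synthesis 0 were higher and 4 lower, and 2 were lower without the GC trend. SREBF1, the transcription factor of lipid synthesis, had 11.78 in erCriz0 against 13.16 in erAlec0 and 13.40 in erLor0, and its target FASN had 12.16, 12.92 and 13.87, a difference of -1.24 that came to -0.73 without the GC trend. SREBF1 lies in a region of chromosome 17 that was low in both measures. Of 30 kept ATF4 and stress genes 0 were higher and 4 lower, and 2 were lower without the GC trend. Among the 4 were ATF5 at -1.29 (-0.94 without the GC trend), NUPR1 at -1.47 and ATF3 at -1.12. Glycolysis and hypoxia genes had 0 higher and 2 lower of 33 kept, ALDOA at -1.16 (-0.99 without the GC trend) and the glucose transporter SLC2A3 at -1.34. Of 27 kept NRF2 targets and AKR1 reductases 1 was higher, GCLM at 1.05 (0.82 without the GC trend), and 1 lower, OSGIN1 at -1.28 (-0.86 without the GC trend). Of 15 kept aldehyde dehydrogenases ALDH3B1 alone passed 1, at -1.54. Of 10 kept drug efflux transporters ABCA1 was higher by 1.38, and ABCG2, a pump that exports many inhibitors, had 5.69, 6.99 and 6.91, with 5 of its 8 peaks lower. The 36 kept cell cycle genes had a median RNA difference of 0.23, with CCNE2 alone past 1 at 1.09 (0.81 without the GC trend), and that median was 0.39 against erAlec0 and -0.01 against erLor0, while their start peaks had a median of -0.46 and 4 of the 36 were above 0.

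Developmental and survival lists held between 0 and 3 genes past 1 in each direction, against 2.46% higher and 2.37% lower over all kept genes. Of 29 kept TGF-beta genes 1 was higher and 3 lower. Among the 26 members at the minimum level in each resistant line 0 were higher and 3 lower. The 1 higher gene, NOG, was under the minimum in both later lines. NOG, a secreted BMP antagonist, had 6.46 in erCriz0 against 3.61 in erAlec0 and 3.92 in erLor0, and ID3, a BMP target, had 5.09, 6.41 and 6.52. Of 27 kept WNT genes 2 were higher, the receptors FZD3 and LGR4 at 1.34 and 1.32, and 1 was lower, the inhibitor DKK1 at -1.39. Notch genes had 0 higher and 3 lower of 18 kept. NOTCH3 had 9.88, 11.34 and 11.38, a difference of -1.48 that came to -1.02 without the GC trend, and HES4 and RFNG at -1.26 and -1.28 dropped to -0.70 and -0.71. Of 24 kept YAP and TEAD genes F3, tissue factor, was higher with 8.54, 6.26 and 5.94 and ARHGAP29 lower at -1.15. The start peak of F3 differed by -0.56. Of 18 kept BCL2 family genes 4 had a difference above 0, and the median was -0.26. The pro-apoptotic BCL2L11 and PMAIP1 were higher, at 1.02 and 1.01, and stood at 0.94 and 0.72 without the GC trend. Of 29 kept histone acetylation genes HDAC7 alone passed 1, at -1.08 (-0.83 without the GC trend), and of 8 kept immune checkpoint ligands none did.

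H3K27ac differed most away from gene starts. Of 19067 peaks within 1 kb of an annotated start 6.88% were higher and 6.01% lower. The shares were 14.1% and 15% of 53628 peaks inside genes and 15.1% and 15.5% of 13737 outside them. These classes were not matched for GC content. By length the share higher was 9.42% for peaks under 1 kb, 18.3% for those of 3 to 10 kb and 12.2% for those of 10 kb or more. Past a distance of 2 from both later lines, 1378 peaks were above and 442 below.

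Among the 6 peaks farthest above both lines were the pair at the serpins already described. An intronic peak of PTGS1, the constitutive cyclooxygenase gene, chr9:122391427-122396013, had 10.35 in erCriz0 against 6.71 in erAlec0 and 6.67 in erLor0. A peak inside GPR39, a zinc-sensing receptor gene, chr2:132561692-132565425, had 8.34, 4.59 and 4.64. The others were chr1:177799401-177801739 inside a long noncoding RNA, with 7.32, 3.32 and 3.13, and chr13:59457281-59460865 outside genes, with 8.72, 4.98 and 5.06. In each the later lines lay close together. Of the 6 farthest below both, the lowest was chr19:55809098-55810658 inside NLRP11, with 3.93 in erCriz0 against 7.52 in erAlec0 and 7.15 in erLor0. A peak at MIR99AHG, the host gene of a microRNA cluster, chr21:16418482-16423478, had 5.61, 8.91 and 8.65. A peak over ACTR6 and DEPDC4, chr12:100227784-100233696, had 5.99, 9.26 and 9.01. The remaining 3 lay on chromosomes 19, 6 and 3 at pseudogenes or outside genes, with differences of -3.24, -3.18 and -3.34.

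H3K27ac ran with RNA at both the higher and the lower genes. The 2406 pairs of a kept peak with a gene higher in erCriz0 had a median peak difference of 0.51, and 30.9% of them were at least 1 higher, against -0.01 and 8.36% over the 93580 pairs of all kept genes. At gene starts 74 of 236 higher genes had a peak at least 1 higher (31.4%, against 2.64% over all) and 1 had a peak at least 1 lower. The 3080 pairs of lower genes had a median of -0.19, with 14.2% at least 1 lower against 9.47% over all, and 30 of 258 start peaks were at least 1 lower (11.6%, against 2.26%). Across genes the relation was weak, with a Spearman's rho of 0.18 over 11253 genes between the RNA difference and that of the start peak. Both measures come from the same 3 lines, and the source of the difference between the sides was not tested. The median at lower genes depended on the later line, with -0.10 against erAlec0 alone and -0.32 against erLor0 alone, while at higher genes these were 0.45 and 0.51. Without the GC trend the medians were 0.53 at higher and -0.46 at lower genes, and over peaks paired with exactly 1 gene they were 0.56 and -0.40, so the sides lay closer together.

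**Figure D5:**
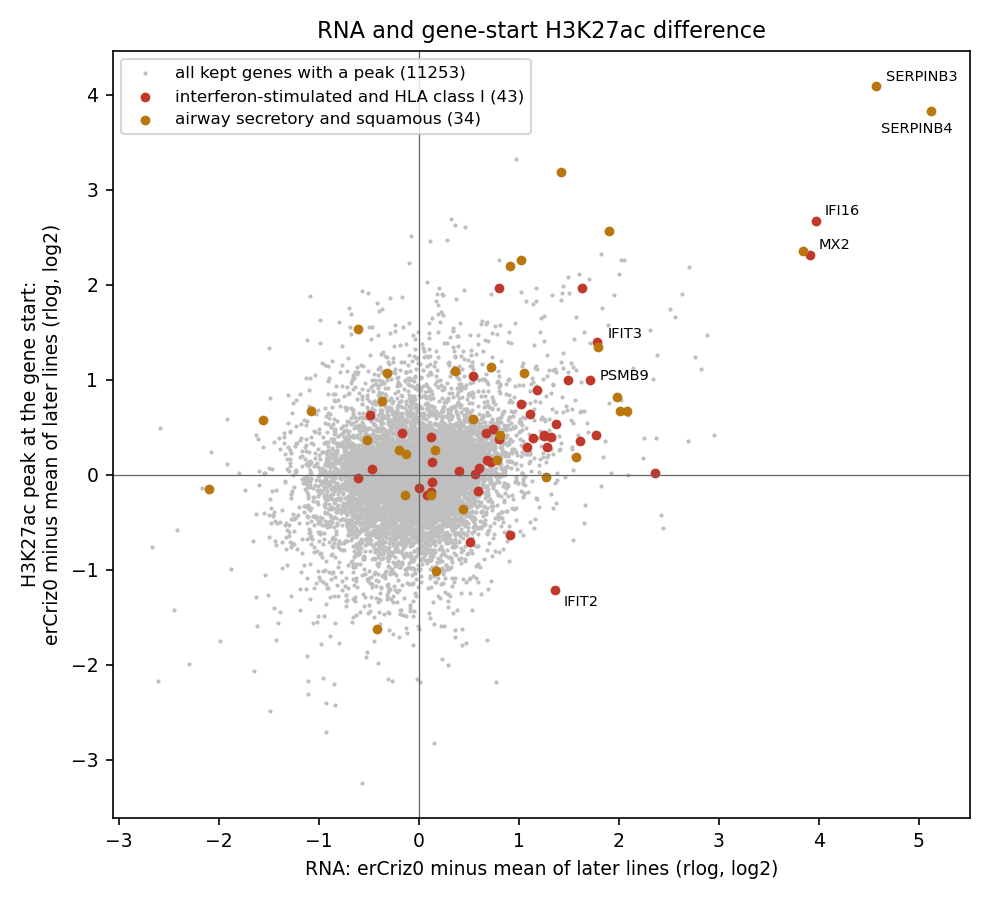
Each point is a kept gene with an H3K27ac peak within 1 kb of its start (11253 genes). The horizontal axis is the RNA difference and the vertical axis the difference of that peak, both erCriz0 minus the mean of erAlec0 and erLor0 in log2 units. Red points are interferon-stimulated and HLA class I genes, orange points airway secretory and squamous genes, and grey points all others. SERPINB3, SERPINB4, IFI16 and MX2 are high on both axes, and IFIT2 is high in RNA with a lower peak.

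Some differences came in blocks along chromosomes. In 2 Mb bins with at least 20 kept peaks and 4 kept genes, a joint shift was counted where the median peak and the median RNA difference were both at least 0.5 in size in the same direction. Of 922 bins 11 were higher and 4 lower. ChIP values have no input subtracted as far as the sources used here say, so extra copies of a region would raise both measures, and copy number and regulation cannot be told apart here. The bin with ALK, chromosome 2 from 28 to 30 Mb, had a median peak difference of 0.74 over 133 peaks and a median RNA difference of 1.17 over 10 genes, 7 of which were at least 1 higher. FOSL2, an AP-1 subunit in this bin, had 11.48 in erCriz0 against 10.52 in erAlec0 and 10.36 in erLor0.

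Chromosome 5 held 6 of the 11 higher bins. From 52 to 54 Mb, where ITGA1 and ITGA2 lie, the median peak difference was 1.54 and all 6 genes were above 0. The bins from 92 to 98 Mb were contiguous, with median peak differences of 1.09, 0.95 and 1.07, and hold the orphan nuclear receptor gene NR2F1 and ERAP1 with ERAP2. Over the whole chromosome 32 of 611 genes were higher and 2 lower, with a median RNA difference of 0.24. Over all kept genes 2.46% were higher and 2.37% lower. Chromosome 6 had 39 of 655 genes higher and 10 lower, with a median of 0.18. The GC trend was not taken off the bin and chromosome values. The other 4 higher bins lay on chromosome 6, with median peak differences between 0.50 and 1.62. The lower bins included 3 contiguous ones on chromosome 17 from 14 to 20 Mb. From 16 to 18 Mb, where SREBF1 lies, 9 of 26 genes were at least 1 lower, and from 18 to 20 Mb 10 of 29 were. From 14 to 16 Mb the median peak difference was -0.91 against erAlec0 and 0.00 against erLor0. The fourth lower bin, chromosome 1 from 116 to 118 Mb, differed from erLor0 alone, with a median peak difference of -1.73, against -0.08 from erAlec0.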

How the data were processed

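The authors deposited 1 table of peak and gene pairs at most 20 kb apart, with log2 values (rlog) for 4 RNA and 4 H3K27ac libraries on hg38. Per the paper's methods, the authors counted RNA reads with HTSeq-count after HISAT2 and ChIP reads with featureCounts in MACS2 peaks merged over samples, after BWA. The authors made the rlog values with DESeq2, and these carry no read totals, so depth is not known and counting error could not be taken. Columns of the authors' own correlations and p-values were not used. Whether counting used strand is not given in the sources used here, so overlapping and antisense genes may share reads.

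Differences were taken with 1 value per gene and per peak in Python 3.11.15 with numpy 2.4.6 and pandas 2.3.3, and the scripts were tested on simulated data. Gene symbols came from GENCODE release 44 (43641 genes had one), GC content from its longest transcript, peak GC content from hg38, and promoters from RefSeq. No test was run. The members and the 33 gene lists were chosen with earlier results of these data known. Genes named are the 12 farthest above and the 12 farthest below both later lines, list members at least 1 beyond both, ALK, EML4, ERBB2 and EGFR, and the 6 peaks farthest out each way. Some genes that meet this rule are not reported here. Further list members were named for their role, some of them after their values were seen. Alternatives were other limits, minimum levels, centring, quantile normalization, leaving out erAlec0 or erLor0, and leaving out the bins of joint shift. The removal of the GC trend was chosen after seeing the data.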

Additional observations from a re-analysis of the deposited data

How the results depend on the processing

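With a limit of 1.5-fold in place of 1 on the log2 scale, 1012 genes were higher in erCriz0, 1305 lower, 666 above both later lines and 863 below both, and with a limit of 2 the counts were 42, 9, 33 and 5. For peaks these counts were 19839, 20979, 15861 and 13873 at 1.5-fold and 1861, 1198, 1378 and 442 at 2. A minimum level in each of the 3 resistant libraries left 245 genes higher, 271 lower, 172 above both and 151 below both. For peaks it left 6626 higher, 5688 lower, 5187 above both and 3535 below both. It tests fewer genes and fewer peaks, and more genes were then lower than higher. Without the GC trend 138 genes were lower and 72 below both, and the cause was not tested. Leaving out erLor0 or erAlec0 gave 340 to 347 genes higher than the remaining later line and 335 to 409 lower, and the same numbers above or below it, since 1 line then stands for both. For peaks the counts were 10930 to 11954 higher and 8505 to 14521 lower, the 14521 lying below erAlec0 with erLor0 left out.

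The median peak difference at higher genes was 0.56 over peaks paired with exactly 1 gene, 0.33 at genes past 1.5-fold, 0.95 at genes past 2, 0.41 without the bins of joint shift, 0.47 with no minimum for peaks, and 0.45 to 0.51 with a later line left out. At lower genes it was -0.40 over peaks paired with exactly 1 gene, -0.08 at genes past 1.5-fold, -0.59 at genes past 2, -0.46 without the GC trend, and -0.32 to -0.10 with a later line left out. Bins of joint shift numbered 5 higher and 2 lower at 5 Mb, and 44 and 18 with a limit of 0.3.

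Stability was checked for 90 genes with a difference of at least 1 that met the naming rule by their distance from both later lines. All 90 kept their direction under centring, quantile normalization and the removal of the GC trend. Centring moved values by at most 0.028, so it could not reverse a difference of 1. Against each later line alone the direction was fixed by the naming rule, which asked for a distance of at least 1 from both. Of the 90, 14 fell under 1 without the GC trend and 2 under each of centring and quantile normalization. List members named for their role were not in this check. Several of them also fell under 1 without the GC trend, among them KRT16, KRT7, FASN and ATF5. No paired analysis was possible because each line has 1 library of each kind and no test was made. With 1 library per line the spread between cultures is unknown, and the rlog values hold no read totals, so depth and counting error are not known.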
